A study of Drosophila melanogaster with 2 samples.

Results

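Most of the genes described here encode protein parts of the spliceosome and of the exon junction complex of Drosophila melanogaster. Also in the set are genes for splicing regulators and Pep, whose product associates with hnRNP particles. All are called splicing genes below. The measurement is binding of the zinc finger protein Sry-delta at the promoters of these genes. A list of 37 gene symbols was given, and symbols absent from the dm6 annotation were dropped. Of the 37 symbols, 35 were in the Ensembl annotation as written and form the gene set, out of 13945 protein-coding genes on the 6 chromosome arms. A gene was called bound when the summit of a peak of the optimal dm6 set lay within 500 bp of any of its annotated start sites.

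Chromatin immunoprecipitation and sequencing (ChIP-seq) was done on whole embryos of both sexes, 0 to 24 hours old. They came from a transgenic line in which Sry-delta is made with green fluorescent protein (GFP) joined to its C-terminal end. Sonication broke the chromatin into fragments, and an antibody to GFP pulled down those bound by the fusion protein. There is 1 group of 2 libraries, labelled biological replicates 3 and 4. No control library was analysed here, so all comparisons are between these genes and other genes in the same peak lists. Every sample is a whole embryo collection over a long developmental window, so a signal cannot be assigned to a cell type or a stage. The tagged protein stands in for Sry-delta, and the labels do not give its level.

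The optimal set held 6318 peaks. The list of each library held 30000 peaks, as did the pooled one. The height of a peak is the signal value deposited by the authors, which has its own scale in each list. It was used here only to rank and describe peaks, with rank 1 the highest. No read totals were used here, so sequencing depth is unknown.

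Spliceosomes remove introns from pre-mRNA. They are built from small nuclear ribonucleoproteins (snRNPs) named U1, U2, U4, U5 and U6, each with its own small nuclear RNA (snRNA) and most with a ring of Sm proteins. U1 pairs with the 5′ splice site, U2 with the branch point, and the tri-snRNP of U4, U6 and U5 then joins and is remodelled into the catalytic machine. SR proteins help to recruit these particles to exons, and the exon junction complex is left on the mRNA upstream of each spliced junction, where it acts in export, decay and, in the fly oocyte, localisation of oskar mRNA.

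Sry-delta peaks lay at the promoters of 31 of the 35 splicing genes, 88.6% with an exact interval of 73.3% to 96.8%. The same call was made for 5445 of 13945 protein-coding genes, 39.0%. The bound genes covered every role on the list, and none shared its peak with another gene of the set, giving 31 distinct peaks. Most of these peaks also lay near the start of a gene outside the set, as described with the positions. The 4 genes without an optimal summit were SmF, snRNP-U1-70K, Sf3b5 and Prp18. No set test was run on this share.

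Divergent promoters made up a larger share of the splicing genes than of the background. Among the splicing genes, 25 of 35 (71.4%) had the start of another protein-coding gene, transcribed in the opposite direction, within 600 bp upstream, against 4211 of 13945 protein-coding genes (30.2%). Of splicing genes with such a neighbour, 23 of 25 (92.0%) were bound, against 3151 of 4211 protein-coding genes with one (74.8%). Of splicing genes without one, 8 of 10 (80.0%) were bound, against 2294 of 9734 such protein-coding genes (23.6%). This split was made after the data had been seen, and the part of promoter arrangement in the share bound was not tested.

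The promoters of 5 bound genes are shown first, since they hold the sequence matches to which the later results return. They are 3 genes with a match to the Sry-delta consensus at their summit (Pep, Sf3a1 and SC35), and 2 further genes with high signals (SF2 and Sf3b2) that hold the DNA replication-related element (DRE, TATCGATA). DRE is bound by the transcription factor DREF and by the insulator protein BEAF-32. Each stretch is read 5′ to 3′ on the strand of the gene and ends 20 bases into its transcript. For SC35 the start used is an inner one, and the whole stretch lies inside the annotated SC35 gene. DRE copies and the Sry-delta match are in capitals. Pep lies at chr3L:17645017-17645186, Sf3a1 at chr3R:17002336-17002505, SF2 at chr3R:16341969-16342138, Sf3b2 at chr2L:3029149-3029273 and SC35 at chr2L:12434019-12434188, all on the minus strand of dm6 (Release 6 sequence from RefSeq).
Pep: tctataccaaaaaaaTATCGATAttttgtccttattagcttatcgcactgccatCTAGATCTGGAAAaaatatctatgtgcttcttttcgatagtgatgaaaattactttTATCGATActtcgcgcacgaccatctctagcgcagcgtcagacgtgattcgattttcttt
Sf3a1: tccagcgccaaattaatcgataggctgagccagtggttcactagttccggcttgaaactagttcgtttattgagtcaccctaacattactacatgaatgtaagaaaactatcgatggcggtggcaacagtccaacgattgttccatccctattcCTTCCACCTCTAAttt
SF2: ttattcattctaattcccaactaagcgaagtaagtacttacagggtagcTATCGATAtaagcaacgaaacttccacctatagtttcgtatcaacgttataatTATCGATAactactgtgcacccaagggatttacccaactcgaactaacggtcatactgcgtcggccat
Sf3b2: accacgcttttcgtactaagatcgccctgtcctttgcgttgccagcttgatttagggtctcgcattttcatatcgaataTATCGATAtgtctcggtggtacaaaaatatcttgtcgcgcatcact
SC35: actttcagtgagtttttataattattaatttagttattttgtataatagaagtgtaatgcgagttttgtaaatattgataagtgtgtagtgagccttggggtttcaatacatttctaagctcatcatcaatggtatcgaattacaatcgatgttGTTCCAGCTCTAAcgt

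In these stretches, Pep and SF2 each held 2 copies of DRE, Sf3b2 held 1, and Sf3a1 and SC35 held none. The Sry-delta match of Pep lay upstream of the start and those of Sf3a1 and SC35 just inside the transcript, for SC35 that of its inner start. Each of these 3 matches had 2 mismatches to the consensus.

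Peak height varied widely over the bound splicing genes. The median optimal signal was 489, with quartiles of 225 and 1330, against a median of 386 and quartiles of 200 and 922 over the 5445 bound protein-coding genes. In rank, the median was 1669 of 6318 for the splicing genes, against 2068 for bound protein-coding genes. The lowest signal among the splicing genes was 105, at Prp19, and the highest was 4660, at Pep. Of the 31 genes, 15 (48.4%, exact interval 30.2% to 66.9%) had a peak among the 1579 strongest of the optimal set, against 2165 of 5445 bound protein-coding genes (39.8%), a share inside that interval.

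**Figure D1:**
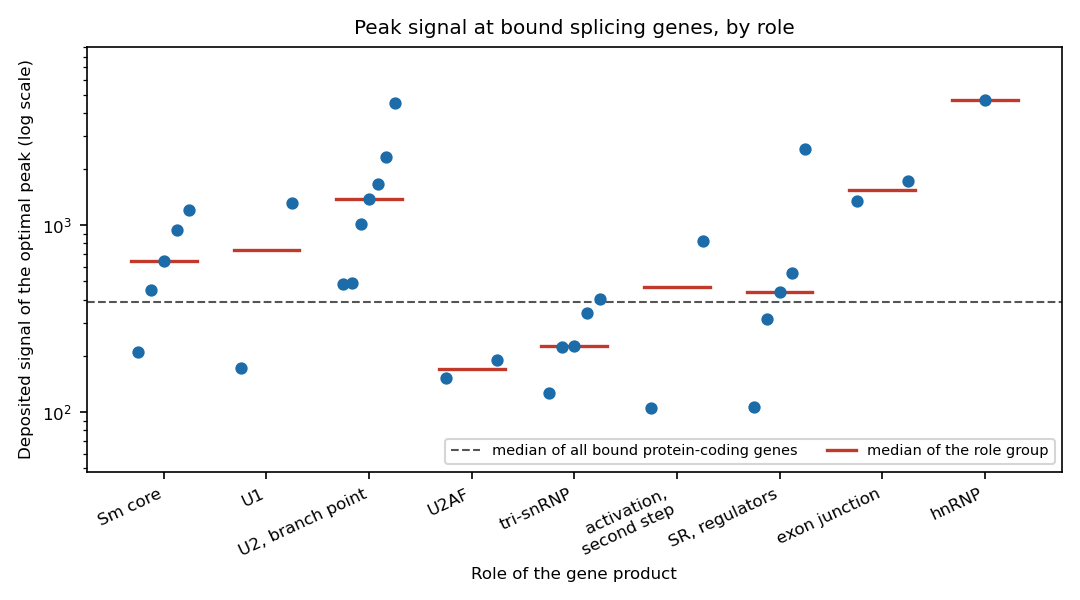
Deposited signal of the optimal peak (log scale) at each of the 31 bound splicing genes, by role of the gene product. Points are genes, red lines are medians of a role, and the dashed line is the median of all bound protein-coding genes, 386; all 7 bound genes of the U2 particle lie above it, and both U2AF genes and 4 of the 5 tri-snRNP genes lie below it.

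The Sm proteins form the ring around the snRNAs, and 5 of the 6 Sm genes in the set were bound. SmB (chr2L:10426377-10427121) had the highest signal, 1207 at rank 675, with 612 in replicate 3 and 604 in replicate 4. SmD3 followed with 943 (457 in replicate 3 and 489 in replicate 4), then SmE (chr2L:7885243-7885688) with 646 (289 and 357 in replicates 3 and 4). SmD2 (chr3R:6345791-6346206) had 452, with 167 in replicate 3 and 284 in replicate 4. SmD1 (chr3L:12734497-12734827) had the lowest of the 5, 211 at rank 3511, and was the gene with the lowest ratio of replicate 4 to replicate 3 (100 in replicate 4 and 112 in replicate 3, log2 −0.16).

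SmF was the Sm gene without an optimal summit, and its nearest one lay 5540 bp away. The replicate 3 list had a peak with its summit on the SmF start itself, with a signal of 57.4 at rank 5111, but neither the replicate 4 list nor the pooled list had one within 500 bp. Among the 6318 strongest peaks of replicate 3, only 27 (0.427%) overlapped no peak of the replicate 4 or pooled list. The symbol SmG is absent from the annotation and was dropped, although a gene now called SNRPG carries it as a synonym. SNRPG had an optimal peak of signal 915 at rank 954, 23 bp upstream of its start.

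The U1 particle had 2 of its 3 protein genes bound. snf (chrX:5308845-5309422), which encodes the fly counterpart of the A protein of U1 and of the B″ protein of U2 and takes part in sex determination, had a signal of 1309 at rank 614, with 560 in replicate 3 and 752 in replicate 4. snRNP-U1-C (chr3R:18983547-18984052), whose product helps U1 to hold the 5′ splice site, had a signal of 172 at rank 4113, with 75.9 in replicate 3 and 89.6 in replicate 4. snRNP-U1-70K, which encodes the U1 protein that binds the first stem-loop of U1 snRNA, had a peak in replicate 3 alone (41.4, rank 6719, 124 bp upstream) and its nearest optimal summit was 3404 bp away. For the U1 particle, then, the called peaks ranged from the strongest 1579 to the lower part of the list.

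The U2 particle and branch point genes had the highest peaks of the multi-gene snRNP roles, with 7 of 8 bound, a median signal of 1377 and a median rank of 564. Sf3a1 (chr3R:17001952-17002804), a subunit of the SF3a complex of U2, was the strongest, with a signal of 4519 at rank 18, and it ranked 16 in replicate 3 (signal 2124) and 21 in replicate 4 (signal 2418). U2A, which binds the U2 snRNA together with snf, had a signal of 2332 at rank 192 (1111 in replicate 3, 1234 in replicate 4). Both stood among the 219 strongest peaks of each library.

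The SF3b complex holds the branch point adenosine, and 4 of its 5 genes in the set were bound. Sf3b1 (chr2L:567843-568578), the largest SF3b subunit and the human target of recurrent cancer mutations, had a signal of 1662 (706 in replicate 3, 962 in replicate 4). Sf3b2 (chr2L:3028857-3029467) had 1377 (616 in replicate 3, 766 in replicate 4), and Sf3b6, whose product contacts the branch point, had 1015 (425 in replicate 3, 594 in replicate 4). Sf3b3 had 485 (195 in replicate 3, 297 in replicate 4). noi, the fly gene for the SF3a subunit SF3A3, had nearly the same signal as Sf3b3, 489 (217 in replicate 3, 274 in replicate 4).

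Sf3b5, a small SF3b subunit, was the U2 gene without an optimal summit. It had weak peaks in both libraries, of signal 30.0 at rank 9069 in replicate 3 and 27.7 at rank 12273 in replicate 4, and a pooled peak of 45.0 at rank 11913 with its summit 3 bp from the start. Its rank in the pooled list therefore fell below the 6318 that the optimal set holds.

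U2af38 and U2af50 encode the small and large subunits of U2AF, which reads the 3′ splice site, and both peaks were low. U2af38 had a signal of 190 at rank 3830 (75.1 in replicate 3, 120 in replicate 4). U2af50 had 152 at rank 4551 (57.5 in replicate 3, 93.9 in replicate 4). In both cases the summit lay closer to the start of a neighbour than to the U2AF gene, as described with the positions.

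All 5 tri-snRNP genes were bound, with none among the 1579 strongest peaks. The signals spanned 127 to 404 with a median of 226. Prp3, a U4/U6 protein, had 404 (176 in replicate 3, 220 in replicate 4), and Prp31, which bridges U4/U6 and U5, had 226 (84.8 in replicate 3, 146 in replicate 4). Prp8, the core U5 protein around the catalytic centre, had 224 (108 in replicate 3, 115 in replicate 4). LSm7 and LSm3 belong to the ring on U6 snRNA. LSm7 had 339 (120 in replicate 3, 221 in replicate 4), and LSm3 had 127 (52.8 in replicate 3, 91.0 in replicate 4).

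Of the 3 genes for activation and the later steps, Bx42, the fly SKIP homologue and also a Notch cofactor, had the highest signal, 828 at rank 1075 (355 in replicate 3, 495 in replicate 4). Prp19, the ubiquitin ligase of the activating complex, had the lowest signal of all bound splicing genes, 105 at rank 6077 of 6318. It was also the gene on which the libraries differed most, with 32.2 at rank 8426 in replicate 3 and 76.8 at rank 5456 in replicate 4. Prp18, which acts in the second step, had no optimal summit within 2346 bp, no peak in replicate 3 and a weak one in replicate 4 (21.7, rank 15490), with a pooled signal of 28.1 at rank 19225.

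The 5 SR protein and regulator genes were all bound, and their signals spanned nearly the whole range of the set. SF2 (chr3R:16341754-16342590), the fly SRSF1, had 2573 at rank 151 (1047 in replicate 3, 1539 in replicate 4). SC35 (chr2L:12433700-12434239), the fly SRSF2, had 557 (288 in replicate 3, 295 in replicate 4), and tra2, a regulator of doublesex splicing in sex determination, had 440 (170 in replicate 3, 278 in replicate 4). B52, an SR protein of chromosome puffs, had 315 (153 in replicate 3, 162 in replicate 4). x16, another SR protein gene, had 107 at rank 6003 (45.7 in replicate 3, 63.0 in replicate 4).

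Both exon junction genes stood high in each library. mago, which forms a dimer with the product of tsu in the exon junction core, had a signal of 1725 at rank 387, with 833 at rank 336 in replicate 3 and 910 at rank 436 in replicate 4. tsu, the fly Y14, had 1349 at rank 586, with 538 at rank 678 in replicate 3 and 819 at rank 522 in replicate 4. The symbol Rnps1 is absent as written and was dropped. The gene now written RnpS1 was not bound, and its nearest optimal summit lay 518 bp away, just outside the window. It had weaker peaks inside the window that were not in the optimal set, with a pooled signal of 99.2 at rank 6355, 305 bp upstream, and signals of 47.2 at rank 6003 in replicate 3 and 51.6 at rank 7379 in replicate 4.

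Pep (chr3L:17644635-17645560), a zinc finger protein of ecdysone puffs that associates with hnRNP particles, had the strongest peak of the set, with a signal of 4656 at rank 13. It ranked 15 in replicate 3 (2159) and 17 in replicate 4 (2518). Pep and Sf3a1 were the only genes of the set among the 21 highest peaks of both libraries.

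**Figure D2:**
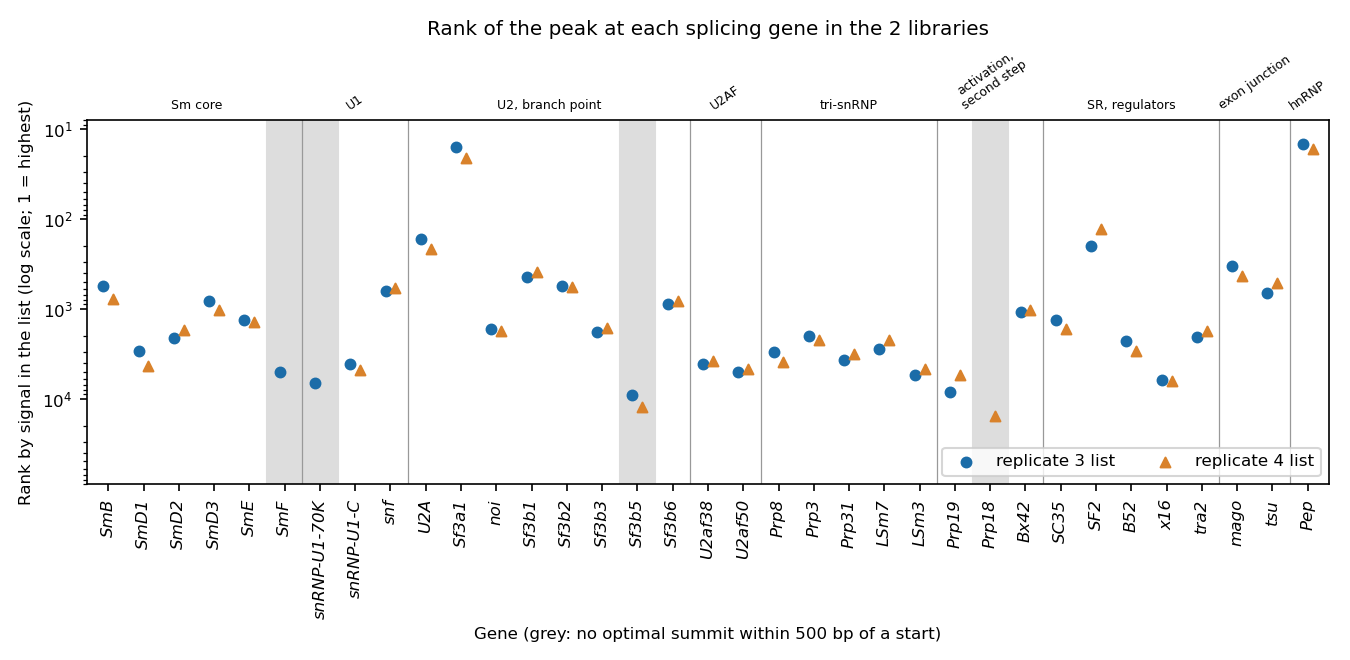
Rank of the peak at each of the 35 splicing genes in the replicate 3 list (circles) and the replicate 4 list (triangles) on an inverted log scale, with rank 1 highest. Grey columns mark the 4 genes without an optimal summit, of which SmF and snRNP-U1-70K have a peak in replicate 3 alone and Prp18 in replicate 4 alone, while Pep and Sf3a1 stand highest in both libraries.

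The order of the splicing genes was similar in the 2 libraries. Spearman's rho between the replicate signals was 0.98 across the 31 bound genes, a description of points that share their libraries and were all selected into the optimal set. The log2 ratio of replicate 4 to replicate 3 had a median of 0.43 (SD 0.31, n = 31 genes), against 0.48 (SD 0.65, n = 6296) over the optimal peaks found in both lists. Prp19 was the gene beyond 1 SD of that distribution, at 1.25. The median rank of the bound genes was 1679 in replicate 3 and 1665 in replicate 4. Of the 31 genes, 30 were among the 6318 strongest peaks of each library, the exceptions being Prp19 in replicate 3 and x16 in replicate 4. Since the labels do not say how the collections were made, differences between the libraries may be biological or technical.

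Summits lay just upstream of the splicing gene starts. The summit was upstream of the start at 30 of 31 genes (96.8%), against 88.1% of bound protein-coding genes. SC35 was the exception, with its summit 1 bp inside the transcript of an inner start of that gene. The LSm3 summit was also counted from an inner start. It lay 26 bp upstream of that start but inside the gene, where untranslated exons of LSm3 and of CG33108 overlap. The median position was 57 bp upstream for the splicing genes, against 61 bp upstream for bound protein-coding genes. The summit was within 100 bp of the start at 23 of 31 splicing genes (74.2%), against 62.4% of bound protein-coding genes. At 26 of 31 splicing genes (83.9%) the summit fell between protein-coding genes, against 68.3% of the background. The exact intervals were 83.3% to 99.9% for upstream summits, 55.4% to 88.1% for summits within 100 bp and 66.3% to 94.5% for summits between genes. Each contained the share of bound protein-coding genes. With the top peaks of replicate 3 alone, the summit was upstream at 25 of 31 genes.

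Most of these promoters were shared. At 23 of 31 splicing genes (74.2%, exact interval 55.4% to 88.1%), a start of another protein-coding gene lay within 500 bp of the summit. Among bound protein-coding genes it was 3194 of 5445 (58.7%), a share inside that interval. By the start of each gene nearest to the summit, all 23 neighbours were transcribed away from the splicing gene. This arrangement was seen at 55.7% of bound protein-coding genes, also inside that interval. At SC35 it held only for the inner start, since the eRF3 start lies inside the SC35 gene. The summit at SmD3 lay in an intron of Oda, and that at U2af50 in an untranslated exon of PIG-Q. Transcripts of these neighbours thus also cross the summit. The summit at SmE lay in an intron of CG7102, a further gene that is not its paired neighbour. The paired starts lay 53 to 538 bp apart, with a median of 301 bp. At 22 of the 23 the summit fell between both starts, and such a peak can belong to either gene.

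The splicing gene held the nearest start at 26 of 31 bound genes (83.9%, exact interval 66.3% to 94.5%). Among bound protein-coding genes it was 3900 of 5445 (71.6%), a share inside that interval. At 5 genes the neighbour start was the nearer one, and for these the assignment to the splicing gene is the least direct. The summit at SmB lay 186 bp from the SmB start and 74 bp from that of KdelR, which encodes a receptor for retrieval of endoplasmic reticulum proteins. The summit at Bx42 lay 447 bp from the Bx42 start and 18 bp from Arfrp1, a small GTPase gene. The summit at U2af38 lay 400 bp from the U2af38 start and 41 bp from Stip1, a co-chaperone gene. At U2af50 the distances were 182 bp to U2af50 and 53 bp to PIG-Q, and at snRNP-U1-C they were 236 bp to snRNP-U1-C and 139 bp to gukh.

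The most compact pairs were SmE with CG34132 (53 bp between starts), mago with Tmtc3 (67 bp), and Sf3b2 with CG17219 and Prp3 with Mi-2 (85 bp each). Mi-2 encodes a chromatin remodeller. Other partners were Cdk7 at snf, a kinase of transcription and the cell cycle, eRF3 at SC35, a translation termination factor, Msh6 at Prp31, a mismatch repair gene, and Vha26 at noi, a proton pump subunit. The remaining partners were Ptp69D at SmD1, CG18048 at SmD2, Oda at SmD3, Irc at Sf3a1, Nle at Sf3b1, Tnpo at Sf3b6, BuGZ at LSm7, rswl at Prp19, pad at SF2 and Hrb27C at x16. Hrb27C, an hnRNP gene, was the single partner that itself encodes a splicing factor of the lists used here. Among the further pathway genes described below, it was counted as bound through this same peak.

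The remaining 8 bound genes shared their summit with no other protein-coding start. They were U2A, Sf3b3, Prp8, LSm3, B52, tra2, tsu and Pep. Their signals spanned 127 to 4660 with a median of 462, against a median of 557 for the 23 genes at shared promoters. High and low peaks thus occurred at both kinds of promoter.

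**Figure D3:**
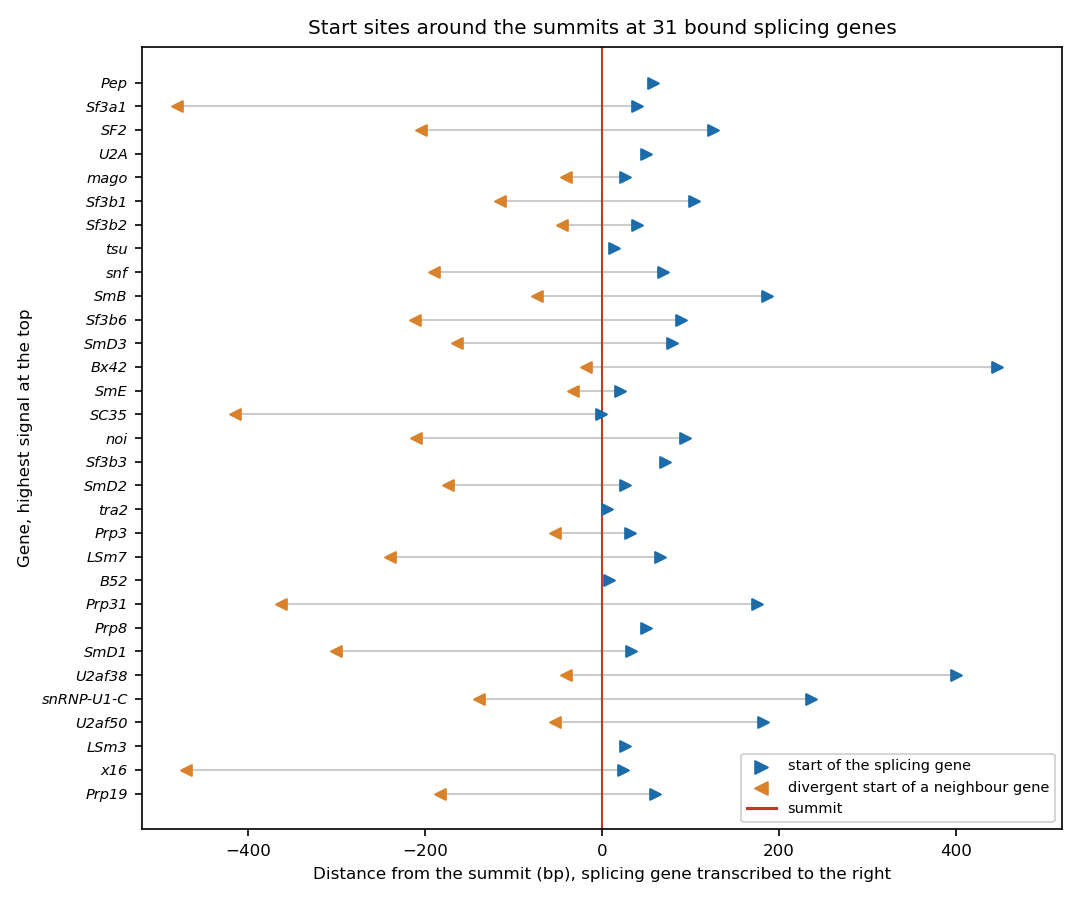
Positions of start sites around the summit at the 31 bound splicing genes, in bp from the summit (red line), with each splicing gene drawn as transcribed to the right and genes ordered by signal. Blue triangles are starts of splicing genes and orange triangles are starts of divergent neighbours; the 23 neighbours lie to the left of the summit, and Bx42 and U2af38 have their own start farthest from it.

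Sequence matches were counted on both strands within 100 bp of each summit, in windows of 201 bp. DRE was present at 10 of 31 splicing genes (32.3%, exact interval 16.7% to 51.4%), against 21.2% of bound protein-coding genes, 15.0% of optimal peaks and 7.84% of windows of the same length centred on protein-coding starts. The 10 genes were SmB, SmE, snf, U2A, Sf3b2, Sf3b3, SF2, B52, mago and Pep, and 5 of them (Pep, SF2, Sf3b3, SmB and mago) held 2 copies. All 15 copies lay upstream of the start of the splicing gene, between 6 and 233 bp from it. The windows were centred on summits that mostly lay upstream, and this placement was not counted for other genes. The 2 copies at SmB overlap each other and lie on the side of the summit toward its neighbour KdelR. The interval of the splicing genes contains the share of bound protein-coding genes.

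Motif 1, the promoter element that M1BP recognises, was matched with at most 1 mismatch at 7 of 31 splicing genes (22.6%), against 19.9% of bound protein-coding genes, 13.9% of optimal peaks and 10.6% of promoters. These were SmD2, snRNP-U1-C, noi, Sf3b1, Sf3b6, Prp3 and x16, and none of them had a DRE at the summit. Over all bound protein-coding genes, 154 of the 1153 with a DRE (13.4%) also held Motif 1, so an overlap of 0 of 10 is not read as a property of the splicing genes. Both kinds of gene occurred in the Sm and U2 groups.

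The Sry-delta consensus, known from in vitro binding, was matched with at most 2 mismatches at 4 of 31 splicing genes (12.9%, exact interval 3.63% to 29.8%), against 8.76% of bound protein-coding genes, 6.70% of optimal peaks and 4.04% of promoters. The count was 2 within 50 bp of the summit, 1 with at most 1 mismatch and 12 with at most 3 mismatches, so it depends on these settings. The exact match was at mago, centred 20 bp inside its transcript. The matches of Sf3a1 and SC35 were centred 10 bp inside theirs, for SC35 counted from its inner start. That of Pep was centred 90 bp upstream. At SC35 and mago the match overlapped one to the core promoter element Motif 7 on the opposite strand, so these letters can be read as either element.

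At the setting of 100 bp and 2 mismatches, all 4 genes with a Sry-delta match were among the 15 splicing genes with the highest peaks, and none of the other 16 had one. Of the same 15 genes, 8 had a DRE, against 2 of the other 16. Across all optimal peaks the same ordering held: the Sry-delta consensus was matched at 17.4% of the 1579 strongest peaks and 3.12% of the others, and DRE at 31.3% of the strongest and 9.58% of the others. Of the 31 genes, 19 had DRE, Motif 1 or the Sry-delta match and 12 had none of these within 100 bp. A match describes letters in a window and is not evidence of use of the site.

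Of the other elements, Motif 6 (at most 1 mismatch) and Motif 7 were each matched at 6 of 31 splicing genes (19.4%), against 13.3% and 19.4% of bound protein-coding genes. The E-box CAGCTG was present at 3 splicing genes (9.68%), against 18.2% of bound protein-coding genes and 13.8% of promoters. GAGAG, the site of GAGA factor, was present at 5 (16.1%), against 16.2% of bound protein-coding genes and 22.5% of promoters. CAGGTAG, the site of the early activator Zelda, was present at none of the 31 (exact interval up to 11.2%), against 0.680% of bound protein-coding genes and 1.03% of promoters. The exact intervals of these 5 shares contained the shares of bound protein-coding genes.

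**Figure D4:**
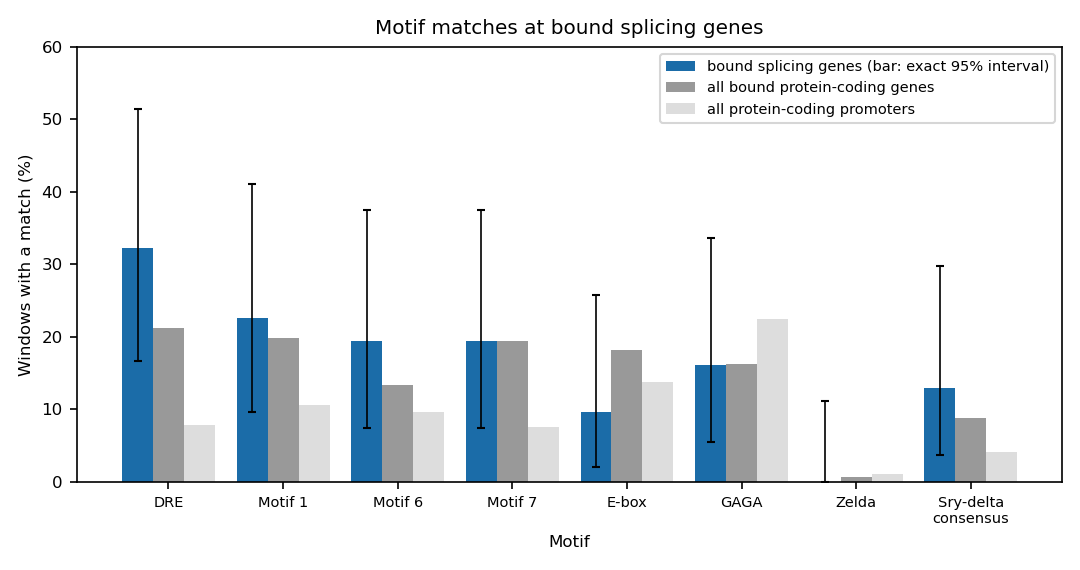
Percent of 201 bp windows with a match to each of 8 motifs at the summits of 31 bound splicing genes (blue, with exact 95% intervals), at the summits of all bound protein-coding genes (dark grey) and centred on all protein-coding starts (light grey). DRE has the highest share at splicing genes, 32.3%, and every interval of the splicing genes contains the share of bound protein-coding genes.

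Genes of the same pathway outside the list were also bound in larger part than the background. Of 44 further splicing and exon junction genes, 34 were bound (77.3%, exact interval 62.2% to 88.5%), against 39.0% of protein-coding genes, with a median signal of 486 and a median rank of 1690.5. The highest were Bin1 with 3461, an SAP18 homologue, Acn with 2690, the fly acinus, and Slu7 with 1785, a second step factor. They were followed by l(1)10Bb with 1425, ncm with 1239 and Hel25E with 1074, the last a helicase of mRNA export. At Bin1, Slu7 and Hel25E the nearest start belonged to another gene, as at 13 of the 34.

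Roles of these further genes were assigned from textbook knowledge and not taken from the annotation. By these roles, 8 of 9 genes listed under exon junction and decay were bound, and 6 of 7 under tri-snRNP. Bound too were 4 of 6 genes listed under U2 and both under U1. Of further SR and regulator genes 7 of 9 were bound, and of genes for activation and later steps 7 of 11. The 10 unbound genes were CG2021, Spf45, CG4849, Prp16, pea, Tango4, Cwc25, Rsf1, ps and Ref1, and 8 of them had a weaker peak in the pooled list. DRE was present at 11 of the 34 bound genes (32.4%) and the Sry-delta consensus at 3 (8.82%).

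Annotated snRNA genes, which include those for the RNA parts of the same particles, were bound in a smaller share than the protein genes. Of 32 annotated snRNA genes, 6 had an optimal summit within 500 bp (18.8%, exact interval 7.21% to 36.4%), against 39.0% of protein-coding genes. The snRNA genes are not independent, since 2 of the 6 share 1 peak, and the difference was not tested. The 32 also include 7SKa, 7SKb, LU, U7, U11, U12, U4atac and U6atac, which lie outside the 5 particles described here, and none was bound. Within those particles the bound genes were 1 of 5 for U1, 1 of 6 for U2, 1 of 3 for U4, 1 of 7 for U5 and 2 of 3 for U6. The count depended on the peak set. It was 0 of 32 in the stronger 3159 optimal peaks, against 26.5% of protein-coding genes. With all pooled peaks it was 17 of 32 (53.1%), against 58.1% of protein-coding genes. The bound ones were U1:95Ca (199), U2:34ABb (154), U4:39B (127), U5:63BC (128), and 2 of the 3 U6 genes, which share 1 peak (186). None of these peaks ranked above 3704 of 6318, and none had a protein-coding start within 500 bp. snRNA genes have near-identical copies, so reads from these loci may have been placed at several of them, and the authors' handling of such reads is not given in the sources used here.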

How the data were processed

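The files are narrowPeak tables of ChIP-seq peaks. README texts that accompany the samples in the deposit describe the order of steps: peaks of a single library came from its own alignment with a control, pooled peaks from the joined alignments with a control, and the optimal peaks from a comparison of those tables by irreproducible discovery rate (IDR). All 6318 optimal peaks had the same interval and summit in the pooled list. The signal value of each peak was deposited by the authors, and how it was scaled is not given in the sources used here. Likewise not given are the aligner, the caller with its version, and the threshold on IDR. Lists in dm3 coordinates were not used. The depth of each library is unknown.

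Summits were the peak start plus the deposited offset, in 1-based dm6 coordinates, joined to the Ensembl release 115 annotation. Where a gene had several summits within 500 bp, the one with the highest signal was described, with the distance to its nearest own start. A replicate peak was matched by an overlap of at least 1 bp. Sequences came from the Release 6 genome. Python 3.11.15, numpy 2.4.6, pandas 2.3.3, scipy 1.17.1 and matplotlib 3.10.9 were used, and the counting was tested on simulated data. Intervals for shares were computed by the exact Clopper-Pearson method at 95% and cover only the counting error over genes.

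The genes and lists were chosen with earlier results of these data known, so no test was run over them. All listed genes were described. Outside the list, genes were named where they shared a peak with a listed gene or covered its summit. Among the other pathway genes, the 6 with the highest signal and the unbound ones were named. Sequences were shown for up to 5 listed genes not on 2R, by match to the Sry-delta consensus and then DRE, highest signal first. Of the other pathway symbols, 40 matched a current symbol, 4 a synonym, 1 was a duplicate and 14 matched no gene and were left out. The alternatives covered the window, the start sites, the peak set, each replicate alone, the motif window and the mismatches.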

Additional observations from a re-analysis of the deposited data

How the results depend on the processing

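No paired analysis was possible because the libraries form 1 group with no contrast. The count of bound splicing genes ranged from 22 to 33 of 35 under the alternatives planned. It was 30 with a window of 250 bp, 31 with 1000 bp or with the first start alone, 22 with the stronger 3159 optimal peaks, 33 with all pooled peaks, and 29 when the peak had to cover the start. With the same number of top peaks from a single library it was 30 to 31, losing x16 without replicate 3, and losing Prp19 but gaining SmF without replicate 4. Over protein-coding genes the share was 34.5% at 250 bp, 42.0% at 1000 bp, 37.4% with the first start alone, 26.5% with the stronger peaks, 58.1% with all pooled peaks and 33.8% with the peak over the start. The share of splicing genes bound was above it in each case. The count was 32 of 37 with both renamed genes and 26 of 35 (74.3%) when the gene had to hold the nearest start, against 3900 of 13945 protein-coding genes (28.0%), both added after the data had been seen. Bound snRNA genes numbered 0 with the stronger peaks and 17 with all pooled peaks. The median rank was 1660 to 1679 in a single library, and the summit was upstream of the start at 28 of 30 and 25 of 31 genes. Within 50 bp of the summit, Motif 1 was matched at 3 genes, the E-box at 0, GAGAG at 3 and the Sry-delta consensus at 2. With at most 1 mismatch the Sry-delta consensus was matched at 1 gene, and with at most 3 at 12. The causes were not tested. Of 81 recomputed values, 66 stayed within the limits set for an unchanged value and 15 moved. The 66 include the count of 22 bound splicing genes with the stronger peaks, and the 15 include the median rank of 1679. This tally is therefore no measure of how stable the counts were. With 2 libraries of unknown depth, the absence of an optimal peak does not show absence of binding.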
